A study of Sus scrofa domesticus with 6 samples.

Results

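The chylomicron and fat absorption genes are 10 genes that carry dietary fat through the lining cells of the small bowel: FABP1, FABP2, MOGAT2, DGAT1, DGAT2, APOB, MTTP, APOA1, APOA4 and APOC3. They were taken by gene symbol from a bulk RNA-seq table of 30352 named genes, and all 10 were among the 18197 genes with enough reads to test. The set was chosen by measured values, because its levels in both animals of the irradiated, untreated group had been seen to lie far apart and on opposite sides of the controls. The differences that involve that group are therefore given as descriptions. Where the number of the 10 that passed over all genes stands beside such a difference, it supports nothing.

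Small intestine came from 6 wild-type Göttingen minipigs aged 6 months, with 2 animals in each of 3 groups and tissue taken on day 14. The IR_Pra group received 15 Gy of 60Co gamma rays to the abdomen and pravastatin, a statin that blocks cholesterol synthesis, by mouth at 40 mg per day in 2 doses a day for 2 weeks. The IR group received the same irradiation without the drug, and the control group received neither, as far as the labels say. No group received pravastatin without irradiation, so in IR_Pra against control the drug and the irradiation cannot be told apart. The labels name neither the segment of small intestine nor the layers of the wall that were taken. Each library came from a separate animal, and IR 1 and IR 2 are given apart throughout.

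Fat absorption runs in a fixed order inside the enterocyte, the absorptive cell of the bowel lining. Fatty acids and monoglycerides released by pancreatic enzymes enter from the lumen, are carried in the cytosol by fatty acid binding proteins and are rebuilt into triglyceride by acyltransferases in the endoplasmic reticulum. Microsomal triglyceride transfer protein loads this fat onto apolipoprotein B, and the growing particle takes up further apolipoproteins before it leaves the cell as a chylomicron and drains into lymph.

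Total counts per library lay between 48600424 and 73975174. Enterocyte markers were present in every library: the brush border peptidase ANPEP stood at 7593 and 7689 CPM in IR_Pra, 3546 and 216 CPM in IR, and 12080.2 and 13809.9 CPM in controls. CPM here is the read count relative to library size, with library sizes scaled by TMM factors. FABP6, the bile acid binding protein of the distal small bowel, was also abundant, at 6951 CPM or more in every library except IR 2, where it was 541 CPM. Of the proximal small bowel markers, CYBRD1, an iron reductase, averaged 104 CPM over all libraries and SLC40A1, an iron exporter, 25.9 CPM, and the transcription factor GATA4 did not exceed 2.22 CPM. IR 2 stood apart in its epithelial genes, and IR 1 stood apart in that its ratios to the control mean fell with transcript length (Spearman correlation -0.35 across genes, against -0.15 to 0.12 in the other libraries).

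The 10 genes together took 0.496% and 0.728% of all counts in the IR_Pra libraries, 4.09% in IR 1 and 0.0782% in IR 2, and 0.626% and 0.788% in the controls. IR 1 was the highest of the 6 libraries for 8 of the 10 genes, and IR 2 was the lowest for 9. Across all 18197 genes, IR 1 was the highest library for 19.9% and IR 2 the lowest for 24.0%. The difference between IR 1 and IR 2, on the log2 CPM scale, had a median of 5.23 over the 10 genes and ran from 2.995 for DGAT1 to 9.53 for APOA4. Over all genes its median was -0.15, with a 5th percentile of -1.85 and a 95th percentile of 2.43. In 7 of the 10 genes IR 1 was above both controls while IR 2 was below both, an order that 8.96% of all genes shared. The exceptions were APOB, which was below both controls in both IR libraries, MTTP, whose IR 1 level lay between the controls, and FABP1, whose IR 2 level lay between them.

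**Figure D1:**
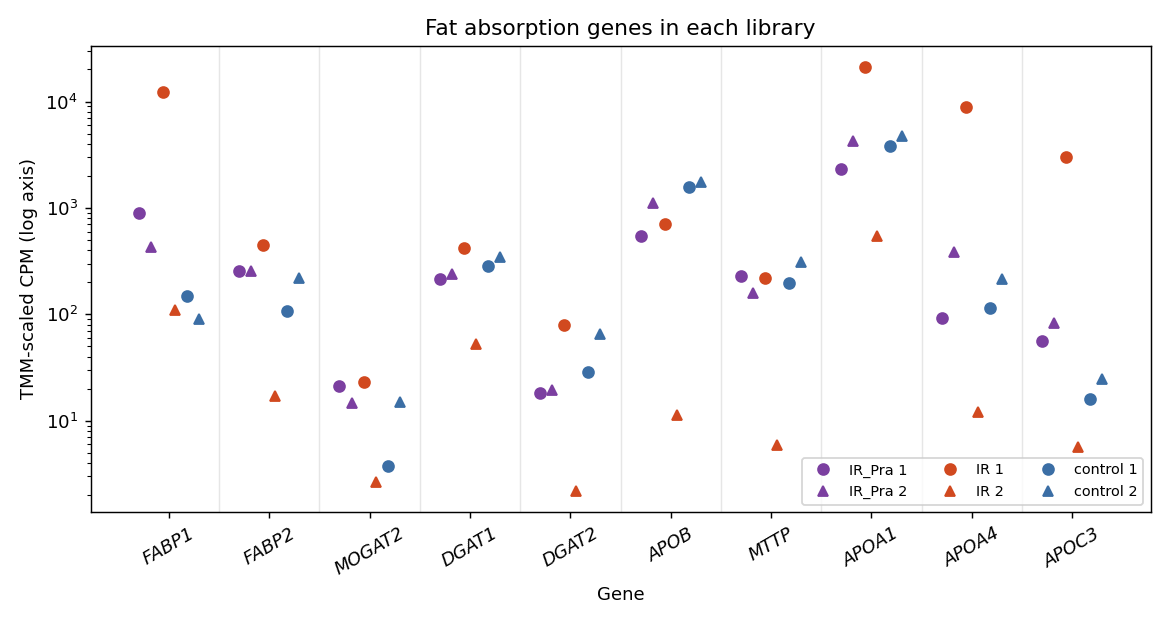
Level of each fat absorption gene in each library, in TMM-scaled CPM on a log axis, with circles for animal 1 and triangles for animal 2 of a group (the numbers pair nothing). IR 1 reached 12259.6 CPM for FABP1 and 21049 CPM for APOA1, while IR 2 was the lowest library for every gene except FABP1, and the IR_Pra and control libraries lay closer together.

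The cytosolic carriers differed in how they moved. FABP1 (Entrez Gene 445535, chromosome 3, 57850511-57854966 on Sscrofa11.1), the fatty acid binding protein that liver and intestine share, had 892 and 426 CPM in IR_Pra, 12259.6 CPM in IR 1 and 110.0 CPM in IR 2, and 149 and 91.1 CPM in controls. Both IR_Pra libraries and IR 1 were above both controls, and IR 2 lay between the controls. IR 1 was 102 times the control mean and 111 times IR 2.

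FABP2 (595106, chromosome 8, 104464342-104468059), the intestine-specific carrier, had 254 and 257 CPM in IR_Pra, 444 CPM in IR 1 and 17.2 CPM in IR 2, and 107 and 219 CPM in controls. Both IR_Pra libraries were close to each other and above both controls. IR 1 was 2.73 times the control mean, and the control mean was 9.46 times IR 2. Compared per transcript length, in the deposited FPKM values, FABP1 stood at 3.88 and 1.98 times FABP2 in IR_Pra, at 33.0 times in IR 1 and 8.18 times in IR 2, and at 1.59 and 0.483 times in controls. The ratio of these carriers was thus higher in all 4 irradiated libraries than in both controls, also in IR 2, where FABP2 was below both controls and FABP1 between them.

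Among the acyltransferases, MOGAT2 and DGAT1 had the smallest gaps between the IR animals of all 10 genes. MOGAT2 (100312975, chromosome 9, 9937654-9951679), which joins a fatty acid to a monoglyceride, had 21.3 and 14.5 CPM in IR_Pra, 23.0 CPM in IR 1 and 2.67 CPM in IR 2, and 3.77 and 15.0 CPM in controls. The controls lay far apart, IR_Pra 2 lay between them, and IR 1 and IR_Pra 1 were above both. MOGAT2 had the lowest level of the set per transcript length in every library but IR 2, where APOB was lower.

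DGAT1 (397118, chromosome 4, 452890-463665), which catalyses the last step of triglyceride synthesis, had 217 and 239.9 CPM in IR_Pra, 423 CPM in IR 1 and 53.0 CPM in IR 2, and 282 and 344 CPM in controls. Both IR_Pra libraries lay below both controls by a small margin. The IR 1 level was 1.35 times the control mean. It was 7.98 times that of IR 2, the smallest ratio between the IR animals in the set.

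DGAT2 (100294675, chromosome 9, 10032163-10066082), an unrelated enzyme for the same step, had 18.2 and 19.3 CPM in IR_Pra, 78.9 CPM in IR 1 and 2.19 CPM in IR 2, and 28.6 and 65.6 CPM in controls. Both IR_Pra libraries again lay below both controls, and their mean was 0.398 times the control mean. The DGAT2 level itself is uncertain, because a row annotated as a DGAT2-like gene on an unplaced sequence, LOC110259135, held 58.7% and 57.9% as many counts in IR_Pra, 70.5% and 52.4% in IR, and 59.6% and 58.0% in controls. That row lay in the same order as DGAT2 in the libraries, with 10.7 and 11.2 CPM in IR_Pra, 55.6 and 1.15 CPM in IR, and 17.1 and 38.0 CPM in controls.

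The core of particle assembly was the exception to the high values of IR 1. APOB (100523371, chromosome 3, 117250096-117316200), the structural protein of the chylomicron, had 549 and 1114 CPM in IR_Pra, 703 CPM in IR 1 and 11.3 CPM in IR 2, and 1571 and 1745 CPM in controls. All 4 irradiated libraries were below both controls. IR 1 was 0.424 times the control mean, and the control mean was 147 times IR 2, the widest such ratio of the set.

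MTTP (397381, chromosome 8, 120820660-120871468), the transfer protein that loads fat onto APOB, had 227 and 159 CPM in IR_Pra, 218 CPM in IR 1 and 5.96 CPM in IR 2, and 198 and 309 CPM in controls. IR 1 lay between the controls, and so did IR_Pra 1, so that IR 2 alone was far from the other libraries. Relative to MTTP, APOB stood at 0.673 and 1.93 times in IR_Pra, 0.892 times in IR 1 and 0.523 times in IR 2, and 2.19 and 1.56 times in controls, all in FPKM. IR_Pra 2 was within the range of the controls for this ratio and the other irradiated libraries were below it.

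Of the apolipoproteins that the particle takes up beside APOB, APOA4 and APOC3 had the widest gaps between the IR animals in the set. APOA1 (397691, chromosome 9, 44216481-44218360), the main protein of high-density lipoprotein, had 2323 and 4277 CPM in IR_Pra, 21049 CPM in IR 1 and 544 CPM in IR 2, and 3800.2 and 4734 CPM in controls. IR_Pra 2 lay between the controls. IR 1 was 4.93 times the control mean, and the control mean was 7.84 times IR 2.

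APOA4 (397681, chromosome 9, 44201587-44204072), an apolipoprotein that the intestine secretes on chylomicrons, had 92.8 and 388 CPM in IR_Pra, 8929 CPM in IR 1 and 12.1 CPM in IR 2, and 115 and 217 CPM in controls. One IR_Pra library was below both controls and the other above both. IR 1 was 53.8 times the control mean and 740 times IR 2.

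APOC3 (406187, chromosome 9, 44211171-44213538), which inhibits lipoprotein lipase and slows the clearance of triglyceride-rich particles, had 56.3 and 82.5 CPM in IR_Pra, 3025 CPM in IR 1 and 5.64 CPM in IR 2, and 16.02 and 24.7 CPM in controls. Both IR_Pra libraries and IR 1 were above both controls, and IR 2 was below both. IR 1 was 149 times the control mean, the largest such ratio of the set, and 537 times IR 2.

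**Figure D2:**
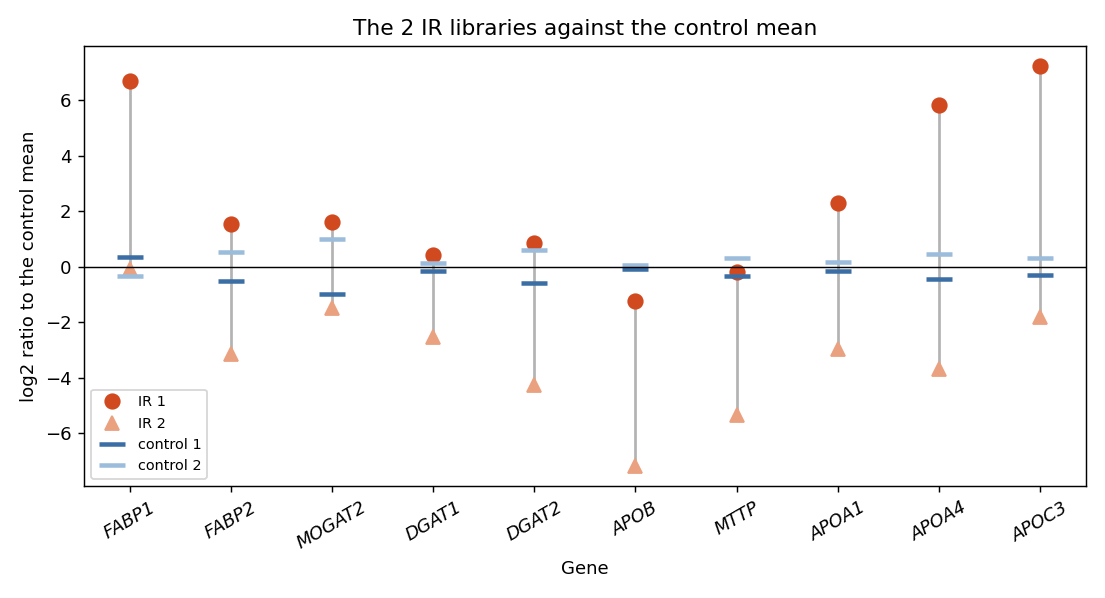
Log2 ratio of IR 1 (circles) and IR 2 (triangles) to the mean of the 2 controls for each gene, with a grey line joining the IR animals and bars marking each control. The line runs from above to below both controls in 7 genes; APOB is below them in both animals, and MTTP in IR 1 and FABP1 in IR 2 lie between the controls.

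APOA4, APOC3 and APOA1 lie within 16.8 kb of each other on chromosome 9, but did not differ by the same amount. APOC3 stood at 5.29% and 4.58% of APOA1 in IR_Pra, at 32.7% in IR 1 and 2.18% in IR 2, and at 0.937% and 1.16% in controls, in FPKM. All 4 irradiated libraries were above both controls in this ratio, including the library in which both genes were lowest. For APOA4 the corresponding shares were 2.57% and 5.84% in IR_Pra, 27.3% in IR 1 and 1.43% in IR 2, and 1.95% and 2.94% in controls, so the irradiated libraries fell on both sides of the controls. The neighbours outside the cluster did not share the wide gap between the IR animals. ZPR1, on one side, had log2 ratios to the control mean of -0.48 and -0.40 in IR_Pra and 0.11 and -0.06 in IR, and SIK3, on the other, had 0.07 and 0.09 in IR_Pra and -0.24 and -0.19 in IR. APOA5, the fourth apolipoprotein gene of the locus, held 0 counts in all irradiated libraries and 2 and 4 counts in controls. These neighbours were chosen by position.

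**Figure D3:**
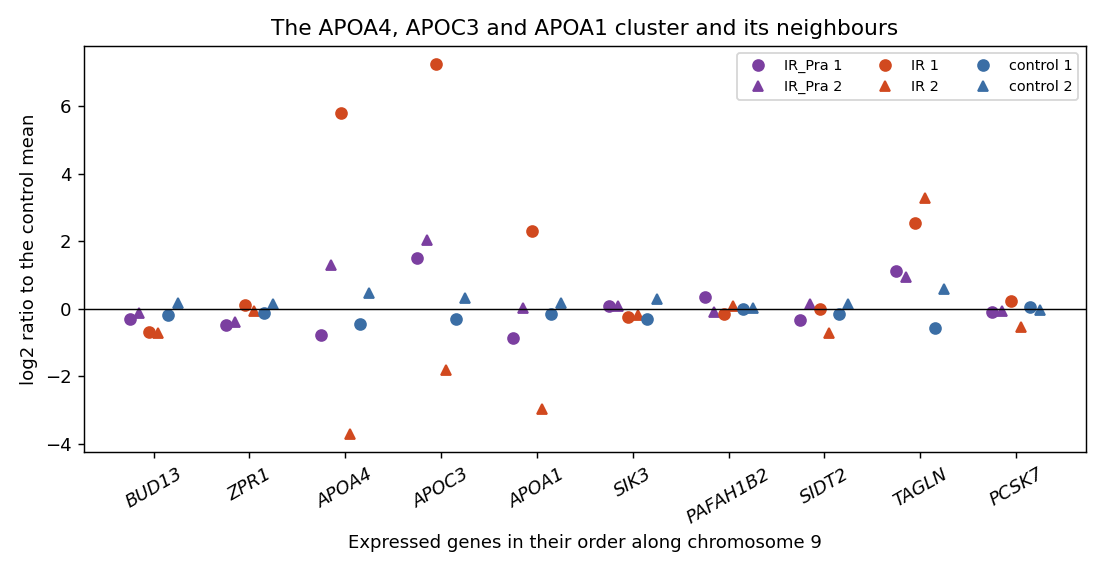
Log2 ratio to the control mean in each library for the expressed genes along chromosome 9 around the APOA4, APOC3 and APOA1 cluster, in chromosome order, with circles for animal 1 and triangles for animal 2. APOA4 spans -3.71 to 5.82, APOC3 -1.81 to 7.25 and APOA1 -2.96 to 2.31, whereas ZPR1 and SIK3 stay between -0.48 and 0.30; TAGLN, a smooth muscle gene, is above both controls in all irradiated libraries.

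The order of the genes by level within a library, compared per transcript length in FPKM, also differed. APOA1 was the most abundant of the 10 in the IR_Pra libraries (2660.0 and 4773 FPKM), in IR 2 (600.0 FPKM) and in the controls (4063 and 5148 FPKM). In IR 1, FABP1 (20052 FPKM) stood level with APOA1 (19648 FPKM), and APOC3 (6423 FPKM) and APOA4 (5358 FPKM) followed. In controls APOC3 had 38.1 and 59.7 FPKM, among the lowest values of the set. APOB was the lowest gene in IR 2, at 0.783 FPKM, against 106 and 119 FPKM in controls.

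Ratios of gene to gene within a library do not depend on the scaling between libraries, but the length trend of IR 1 was not removed from them. In IR 1 the median log2 ratio of all genes to the control mean was 0.62 in the length group (of 10) of FABP1. It was -0.71 in that of APOB. Of the 45 ratios that the 10 genes form, 24 did not overlap between the 4 irradiated libraries and the 2 controls, against 22.2% of all gene pairs tested; these ratios share genes, and they include the IR libraries by which the set was chosen. FABP1 was higher relative to 6 of the other genes (FABP2, APOA1, APOB, MTTP, DGAT1 and DGAT2) in all 4 irradiated libraries than in both controls. APOB was lower relative to 7 of them (FABP1, FABP2, APOA1, APOA4, APOC3, MOGAT2 and DGAT1).

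In IR against control, the fitted log2 fold changes average the opposing animals and describe neither. They were 5.69 for FABP1, 0.50 for FABP2, 0.45 for MOGAT2, -0.40 for DGAT1, -0.22 for DGAT2, -2.22 for APOB, -1.18 for MTTP, 1.34 for APOA1, 4.75 for APOA4 and 6.22 for APOC3. By edgeR's quasi-likelihood test at an adjusted p under 0.05, 0 of the 10 genes passed, while 3.39% of all genes were higher and 2.68% lower (616 and 487 genes; 182 and 293 with scaling by library size alone). DESeq2, an alternative tool, passed FABP1 and APOC3 as higher, and over all 18197 genes it passed 2244 as higher and 1887 as lower. By edgeR, 2 of the 10 had an unadjusted p under 0.05, as did 5496 of 18197 genes. Without IR 1 every fold change was negative, from -0.13 for FABP1 to -7.20 for APOB. Without IR 2 they ran from -1.24 for APOB to 7.21 for APOC3, and MTTP (-0.22) was the other negative one. The genes were chosen for the opposition of the IR animals, so neither the counts nor these directions are a result about them.

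In IR_Pra against IR, the fitted log2 fold changes were -3.23 for FABP1, 0.15 for FABP2, 0.48 for MOGAT2, -0.06 for DGAT1, -1.11 for DGAT2, 1.22 for APOB, 0.79 for MTTP, -1.71 for APOA1, -4.22 for APOA4 and -4.45 for APOC3. Both IR_Pra libraries lay between IR 2 and IR 1 in 8 of the 10 genes, against 9.52% of all genes. The choice of genes with a wide gap between the IR animals favours this order. By edgeR's test 0 of the 10 passed, against 0.0055% of all genes higher (1 gene) and 0% lower. At an unadjusted edgeR p under 0.05 there were 0 of the 10, against 4467 of 18197 genes. DESeq2 passed 0 of the 10, against 2872 of 18197 genes. Without IR 1 every fold change was positive, from 2.11 for DGAT1 to 6.21 for APOB. Without IR 2, 9 of the 10 were negative, from -0.17 for MTTP to -5.44 for APOC3, and APOB was 0.25. These opposite signs follow from how the genes were chosen and are given as values only.

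In IR_Pra against control, the contrast that leaves out the IR animals, none of the 10 genes passed the test. FABP1 averaged 659 ± 329.8 CPM in IR_Pra and 119.9 ± 40.7 CPM in controls (SD, n = 2 each), with a log2 fold change of 2.46 ± 1.71 (SE) and an adjusted p of 0.9998 in edgeR's quasi-likelihood test. APOC3 averaged 69.4 ± 18.5 CPM in IR_Pra and 20.3 ± 6.12 CPM in controls, with a log2 fold change of 1.77 ± 1.93. DGAT2 averaged 18.8 ± 0.746 CPM in IR_Pra and 47.1 ± 26.1 CPM in controls, with a log2 fold change of -1.33 ± 1.32. The other 7 log2 fold changes lay between -0.996 for APOB and 0.94 for MOGAT2, each within its own SE of 0. Both IR_Pra libraries were above both controls for FABP1, FABP2 and APOC3, against 20.8% of all genes, and below both for APOB, DGAT1 and DGAT2, against 20.0% of all genes. Over all genes 0% were higher and 0% lower at an adjusted p under 0.05, and 623 of 18197 had an unadjusted p under 0.05, among them 0 of the 10. DESeq2 passed 72 genes in this contrast and 0 of the 10.

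The intervals in this contrast were wide, and IR 1 and IR 2 enter the shared estimate of the spread. The 95% interval of the log2 fold change ran from -1.75 to 6.66 for FABP1, from -4.48 to 5.55 for APOA4, from -4.59 to 2.60 for APOB and from -2.52 to 1.60 for DGAT1. Differences of several fold in either direction were thus not detectable for most of the set. With either IR library left out, or with the IR_Pra and control libraries fitted alone, 5 of the 10 genes had an unadjusted p under 0.05: FABP1 and APOC3 were higher in IR_Pra, and APOB, DGAT1 and DGAT2 lower. Over all genes 1755 of 18896 did so without IR 1, 1754 of 18746 without IR 2 and 1668 of 17617 in the 4 libraries alone. None of these differences passed after adjustment, with a smallest adjusted p among the 10 of 0.349 in edgeR's test.

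Transcript length bore on the values of IR 1. With all genes put into 10 equal groups by transcript length, the shortest group had a median log2 ratio to the control mean of 0.62 in that library, and the longest had -0.71. APOC3 (420 nt), FABP1 (541 nt), FABP2 (636 nt) and APOA1 (932 nt) belong to the shortest group and APOB (14788 nt) to the longest. With the trend in length removed, the IR 1 log2 ratio was 6.59 for APOC3, 6.07 for FABP1, 0.91 for FABP2, 1.72 for APOA1 and 5.36 for APOA4, and it was -0.49 for APOB, against -1.24 before. MTTP changed sign, to 0.03 from -0.18 before. The source of the length trend in IR 1 was not tested.

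**Figure D4:**
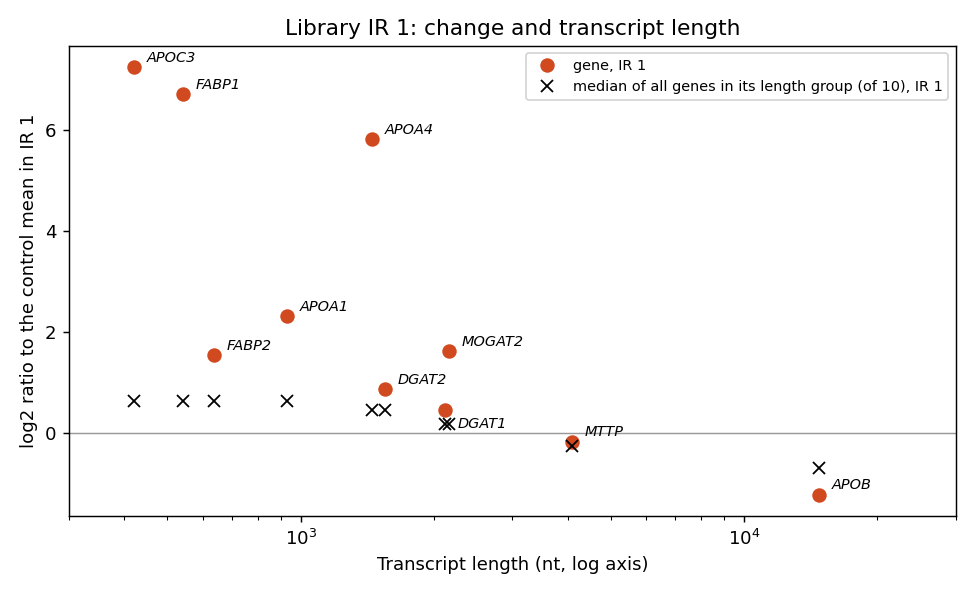
Log2 ratio of IR 1 to the control mean for each fat absorption gene (circles) against its transcript length in nucleotides on a log axis, with crosses for the median of all genes in the same length group. FABP1 (6.72) and APOC3 (7.25) lie far above the 0.62 of their group and APOA4 (5.82) far above 0.44, while APOB (-1.24) lies below the -0.71 of its own.

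Further genes of the fat absorption pathway had smaller median differences than the 10, which had been chosen for their split. Of 59 genes in 6 lists of further pathway steps, 57 were in the table and 51 had enough reads to test. By edgeR's test, 0 passed in IR against control, in IR_Pra against IR or in IR_Pra against control. At an unadjusted edgeR p under 0.05 there were 7, 4 and 1 of the 51, against 5496, 4467 and 623 of 18197 genes. DESeq2 passed 5 of the 51 in IR against control (MIA2, ABCG8, LPIN1, LPL and SCARB1), 1 in IR_Pra against IR (AGPAT3) and 0 in IR_Pra against control. Over all 18197 genes it passed 4131, 2872 and 72. A fit without IR 1 or without IR 2 leaves 1 IR animal, so no count of pathway genes passing is given for it. The median log2 ratio of the 51 genes to the control mean was -0.12 and -0.05 in the IR_Pra libraries, 0.40 in IR 1 and -0.81 in IR 2. Over the 10 genes the corresponding medians were -0.32 and 0.38 in IR_Pra, 1.57 in IR 1 and -3.06 in IR 2, and over all genes they lay between -0.03 and 0.02. IR 1 exceeded IR 2 in 37 of the 51 pathway genes, against 42.3% of all genes. Both IR_Pra libraries were below both controls in 18 of the 51 and above both in 6, against 20.0% and 20.8% of all genes.

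In the uptake list, 6 of 11 genes were above both controls in IR 1 and 6 of 11 were below both in IR 2, against 42.2% and 43.2% of all genes. SLC27A4, a fatty acid transport protein, had 222 and 217 CPM in IR_Pra, 576 and 72.2 CPM in IR, and 226 and 337 CPM in controls. FABP6 had 17932 and 9971 CPM in IR_Pra, 21128 and 541 CPM in IR, and 12483 and 6951 CPM in controls. Both genes were above both controls in IR 1 and below both in IR 2, while the counts of the list were not far from those over all genes.

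In the resynthesis list, 8 of 11 genes were above both controls in IR 1 and 5 of 11 below both in IR 2, against 42.2% and 43.2% of all genes. AGPAT2, which makes the phosphatidic acid precursor of triglyceride, had 279 and 320.3 CPM in IR_Pra, 1314 and 34.5 CPM in IR, and 502 and 351 CPM in controls. LPIN2, the next enzyme of that route, had 50.9 and 96.4 CPM in IR_Pra, 131 and 54.3 CPM in IR, and 119 and 75.0 CPM in controls. AGPAT2 kept the wide split of the IR animals and LPIN2 had a narrow one.

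In the list for chylomicron assembly and secretion, 10 of 14 genes were below both controls in IR 2, against 43.2% of all genes. In IR 1, 7 were above and 6 below both, near the 42.2% and 43.8% of all genes. P4HB, the protein disulfide isomerase that is the partner subunit of MTTP, had 868 and 798 CPM in IR_Pra, 2273 and 859.9 CPM in IR, and 932 and 960.1 CPM in controls. In IR 2 it was thus close to the controls, whereas MTTP was not. PRAP1, a lipid-binding secreted protein of the bowel lining, had 202 and 246 CPM in IR_Pra, 1277 and 29.0 CPM in IR, and 221 and 232 CPM in controls.

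The list of other apolipoproteins and sterol efflux did not share the high values of IR 1: 1 of its 6 tested genes was above both controls there, against 42.2% of all genes. ABCG8, part of the pump that returns plant sterols and cholesterol to the lumen, had 79.0 and 143 CPM in IR_Pra, 55.8 and 5.55 CPM in IR, and 245 and 185 CPM in controls. All 4 irradiated libraries were below both controls, the order seen for APOB. APOE, which many cell types including macrophages make, had 194 and 399.7 CPM in IR_Pra, 309.9 and 1037 CPM in IR, and 385 and 202 CPM in controls, with IR 2 the highest library. APOA2 and APOH held 0 counts in every library.

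Among lipases, PNLIPRP2, a galactolipase related to pancreatic lipase, had 177 and 139 CPM in IR_Pra, 464 and 49.7 CPM in IR, and 155 and 198 CPM in controls, while CEL, the bile salt-stimulated lipase, averaged 2.55 CPM over all libraries. Of the enzymes that break down stored triglyceride, PNPLA2 had 118 and 171 CPM in IR_Pra, 169 and 93.6 CPM in IR, and 201 and 285 CPM in controls. LPL, the lipase that APOC3 inhibits, had 41.9 and 31.1 CPM in IR_Pra, 32.4 and 94.6 CPM in IR, and 18.7 and 17.8 CPM in controls. All 4 irradiated libraries were above both controls for LPL and below both for PNPLA2.

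**Figure D5:**
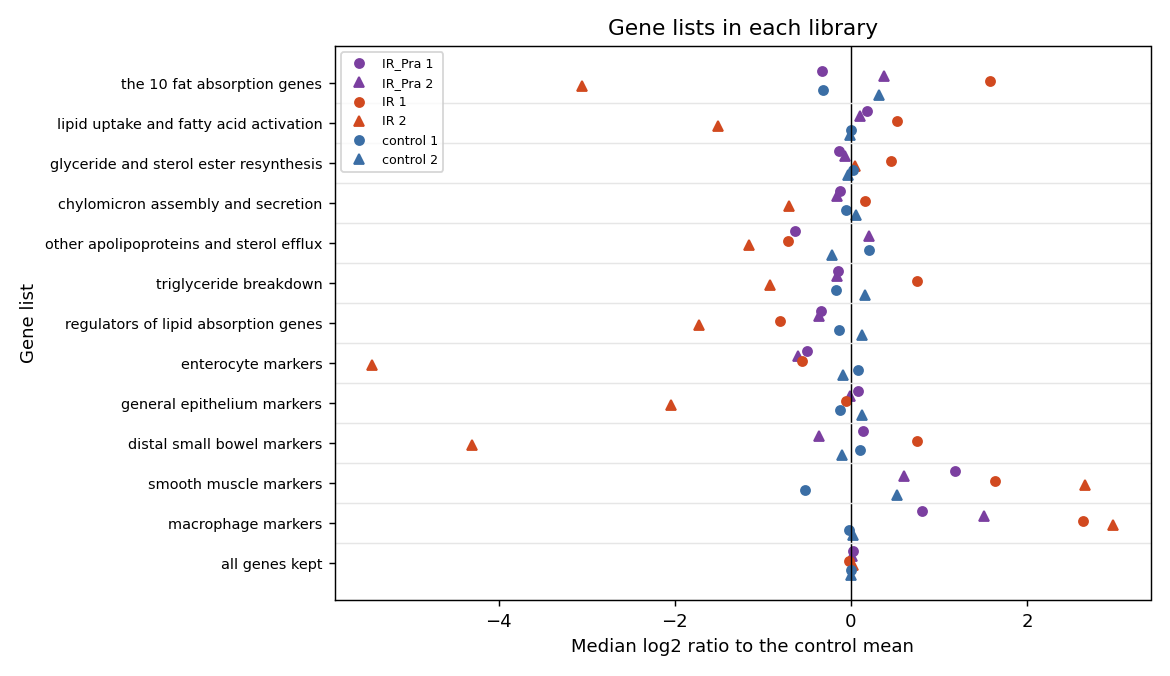
Median log2 ratio to the control mean in each library over the 10 fat absorption genes, 5 of the 6 lists of further pathway genes, their regulators, marker lists and all tested genes, with circles for animal 1 and triangles for animal 2. The 10 genes stand at 1.57 in IR 1 and -3.06 in IR 2; enterocyte markers stand at -0.56 and -5.43, and macrophage markers at 2.64 and 2.98.

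Among the transcription factors and nuclear receptors that govern fat absorption genes, some were low in both IR animals. Of 18 listed regulators, 4 fell and 0 rose in IR against control by edgeR's test, against 2.68% and 3.39% of all genes. In IR 1, 8 were above and 10 below both controls, against 42.2% and 43.8% of all genes. In IR 2, 16 were below both, against 43.2%, and 9 were below both in both animals, as were 5466 of 18197 genes. Both IR_Pra libraries were below both controls for 10 of the 18 and above both for 0, against 20.0% and 20.8% of all genes. HNF4G, a nuclear receptor of differentiated enterocytes, had 199 and 124 CPM in IR_Pra, 5.74 and 8.57 CPM in IR, and 213 and 193 CPM in controls, with a log2 fold change in IR against control of -4.82 ± 0.39 (SE, adjusted p = 0.0331). KLF5, a factor of intestinal epithelium, had 131 and 108 CPM in IR_Pra, 14.5 and 10.2 CPM in IR, and 147 and 177 CPM in controls (-3.71 ± 0.30, adjusted p = 0.0331). PPARA, the fatty acid-sensing receptor whose targets include FABP1, had 12.3 and 7.39 CPM in IR_Pra, 1.49 and 1.31 CPM in IR, and 16.9 and 12.4 CPM in controls (-3.39 ± 0.40, adjusted p = 0.0359).

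Both IR animals were far below both controls for HNF4G, KLF5 and PPARA. The calls of all 4 regulators were lost in a fit of the IR and control libraries alone, with 0 regulators called. These calls were also lost on leaving out any 1 of the control or IR_Pra libraries. Leaving out IR 1 or IR 2 leaves 1 IR animal, so no regulator calls are given for those fits. CREB3L3, an intestinal and hepatic factor whose targets in mice include Apoa4, was named after its values were seen. It had 164 and 314 CPM in IR_Pra, 736 and 14.4 CPM in IR, and 351 and 553 CPM in controls. CREB3L3 was thus above both controls in IR 1 and below both in IR 2 and in both IR_Pra libraries. APOA4, by contrast, was above both controls in IR_Pra 2. The part of CREB3L3 in the APOA4 level was not tested.

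In bulk tissue, fewer cells of a type and less RNA per cell cannot be told apart, and the marker lists are given beside the 10 genes for that reason. Enterocyte markers had medians of -0.50 and -0.61 in IR_Pra, -0.56 in IR 1 and -5.43 in IR 2. The length trend of IR 1, where the longest group of genes had a median of -0.71, was not removed from the marker medians. Of the 17 enterocyte markers, 13 were below both controls in IR 1 and 16 in IR 2, against 43.8% and 43.2% of all genes. Both IR_Pra libraries were below both controls for 13 of the 17 and above both for 1, against 20.0% and 20.8% of all genes. Their summed level was 23877 and 21421 CPM in IR_Pra, 15664 and 827 CPM in IR, and 34158 and 34843 CPM in controls. In IR 1, therefore, FABP1, APOA1, APOA4 and APOC3 were above both controls while the summed enterocyte markers were below them. SI, the sucrase-isomaltase of the brush border, had 3535 and 1735 CPM in IR_Pra, 911 and 37.1 CPM in IR, and 3042 and 2793 CPM in controls. TREH, a brush border trehalase, was the only one of the 17 enterocyte markers that passed in IR against control, and it was higher (2.93 ± 0.57, adjusted p = 0.0461). Over all genes, 3.39% passed as higher and 2.68% as lower. General epithelial markers had medians of 0.08 and -0.01 in IR_Pra, -0.06 in IR 1 and -2.04 in IR 2.

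Distal small bowel markers, which include FABP6, had medians of 0.14 and -0.36 in IR_Pra, 0.76 in IR 1 and -4.30 in IR 2. Proximal markers had -1.16 and -0.12 in IR_Pra, 0.07 in IR 1 and -0.71 in IR 2. Of the 12 proximal markers tested, 1 passed edgeR's test in IR against control. This was the folate transporter SLC46A1, which was higher (1.39 ± 0.28, adjusted p = 0.0487). Over all genes, 3.39% passed as higher and 2.68% as lower. Relative to FABP6 in FPKM, FABP1 stood at 4.67% and 4.33% in IR_Pra, 58.9% in IR 1 and 22.1% in IR 2, and 1.15% and 1.29% in controls, so that all 4 irradiated libraries were above both controls. Whether the site of sampling along the bowel differed between animals was not tested, since the labels do not give it.

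Defining markers of hepatocytes, which make many of the same proteins, were at or near 0. Of 13 hepatocyte markers, 5 held 0 counts in all libraries and 6 had enough reads to test; fibrinogen FGA, FGG, AHSG, CYP2E1 and APOH were at 0. ALB, the main product of hepatocytes, held 7 and 9 counts in IR_Pra, 9 and 6 counts in IR, and 0 counts in both controls. Adipocyte markers summed to 709 and 1186 CPM in IR_Pra, 1918 and 157 CPM in IR, and 962 and 2398 CPM in controls, mostly PCK1, which enterocytes also express; ADIPOQ held 4 counts in 1 control and 0 elsewhere and LEP 0 in all libraries. Of 5 measured pancreatic acinar markers, which include PNLIP and CTRC at 0, the summed level did not exceed 4.65 CPM.

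Markers of other cells of the wall mostly lay on the same side of the controls in both IR animals. Of 11 macrophage markers, 9 rose in IR against control, among them CD163 with 44.1 and 42.5 CPM in IR_Pra, 134 and 206 CPM in IR, and 10.02 and 10.2 CPM in controls (4.07 ± 0.30, adjusted p = 0.0331), and their summed level was 1253 and 1887 CPM in IR_Pra, 3590 and 3959 CPM in IR, and 732 and 739.9 CPM in controls. Smooth muscle markers summed to 22164 and 14914 CPM in IR_Pra, 34102 and 72916 CPM in IR, and 6493 and 13269 CPM in controls, with 1 of 10 passing as higher. Fibroblast markers had medians of 1.11 and 0.57 in IR_Pra, 1.32 in IR 1 and 2.00 in IR 2, with 1 of 10 passing as higher, and 6 of 8 B cell markers fell. Beside these marker counts, 3.39% of all genes passed as higher and 2.68% as lower in IR against control. Like the regulator calls, the marker calls in IR against control were lost without either control library, without either IR_Pra library and in the IR and control libraries alone, where 0 genes passed by edgeR's test. The part of these cell types in the levels of the 10 genes was not tested.

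The median profile of the 10 genes over the 6 libraries, on the log2 ratio scale, was matched most closely by FBP1, SLC22A18, CES1, TM4SF4, CES3, LOC106507664, GOLT1A, TMEM176B, TMEM92 and CYP4F2 among genes averaging at least 10 CPM. Their root mean square differences from it ran from 0.193 for FBP1 to 0.402 for CYP4F2. FBP1, the gluconeogenic fructose-bisphosphatase, had 196 and 215 CPM in IR_Pra, 494 and 23.8 CPM in IR, and 151 and 250.1 CPM in controls. CES1, a carboxylesterase, had 221 and 187 CPM in IR_Pra, 530 and 26.5 CPM in IR, and 170 and 240.0 CPM in controls. Of the 10 genes themselves, APOA1 (0.415) and FABP2 (0.474) were nearest to their own median profile, and APOC3 (2.58) and FABP1 (2.86) farthest. The points of this comparison share the same 6 libraries, and no test was made of it.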

How the data were processed

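Bulk RNA-seq of small intestine from 6 minipigs was used, with groups taken from the labels. The authors deposited a read count and an FPKM value per gene and library, per the file headers. Per the submitters' processing notes the tools were bcl2fastq 2.20.0, Trimmomatic, HISAT2 2.1.0 and StringTie 2.1.3b and the builds Sscrofa11.1 and GRCh38; the role of GRCh38, the Trimmomatic version and how whole counts were made from assembled transcripts are not given in the sources used here, nor is whether counting used strand. RNA was extracted with Trizol, per the labels. All 30352 named rows matched RefSeq genes of Sscrofa11.1 by Entrez ID, and 24 rows without a name, holding at most 0.0385% of a library's counts, were left out.

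The test was edgeR 4.0.16 under R 4.3.3 (filterByExpr by group, TMM, 1 quasi-likelihood fit of all 6 libraries with 3 residual degrees of freedom, two-sided tests) and Benjamini-Hochberg adjustment over 18197 genes, with a threshold of 0.05. The common biological coefficient of variation was 0.431. Log2 ratios use log2 CPM with a prior count of 2. FPKM was used to compare genes, and transcript length was taken from count over FPKM for counts of at least 10. The length trend was removed by loess with a span of 0.3. DESeq2 1.42.0 and limma 3.58.1 served as alternatives.

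The 10 genes, the lists and the gene ratios were chosen with earlier results of these data known. From each list, up to 3 genes with the smallest p per comparison and direction were named where any passed, otherwise up to 2 with the highest mean CPM; any other gene is said to have been chosen by position or after its values were seen, or illustrates a marker list. With 2 animals per group, p-values rest on little replication. Some values of the regulator and hepatocyte marker lists are not reported here.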

Additional observations from a re-analysis of the deposited data

How the results depend on the processing

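The number of genes called differed widely between settings. For IR against control, 1103 genes passed in the edgeR fit, 4131 with DESeq2, 475 with scaling by library size alone, 403 and 543 with limma on log2(FPKM + 1) and log2(FPKM + 0.1), and 0 in the IR and control libraries alone; leaving out 1 library gave 0 to 5342, with 0 without either control or either IR_Pra library, 5342 without IR 1 and 3284 without IR 2. For IR_Pra against IR, 1 gene passed, against 2872 with DESeq2, 2 with library size alone, 2 with no filter, 10 with log2(FPKM + 0.1) and 0 in those 4 libraries alone; leaving out 1 library gave 0 to 3728 (3728 without IR 1, 2317 without IR 2). For IR_Pra against control, 0 passed and DESeq2 gave 72. A replicate block on the animal number gave 0 genes in IR against control and 0 in IR_Pra against IR, so that none of the 4 regulators passed under it; the numbers name separate animals, and same-numbered deviations correlated at 0.08, -0.09 and -0.11 across genes in the 3 comparisons.

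For the 10 genes in IR_Pra against control, 149 of 150 alternative values kept direction and side of the threshold. The exception was APOA4, at -0.85 without IR_Pra 2 and up to 1.21 with another library left out. The median log2 ratio of the 10 genes in IR 1 was 0.82 and 2.26 with 1 control left out. In IR against control, 18 of 150 values had the opposite sign, over 8 of the genes (all but APOB and MTTP), and in IR_Pra against IR 18 of 150, over 9 (all but APOB). Without IR 1 and without IR 2 the sign was opposite in those same 8 and 9 genes; the other sign changes came from FPKM, library size, length, the replicate block or 1 control left out. The cause of these differences was not tested. The lowest count of the 10 genes was 166, for DGAT2 in IR 2, and each group had 2 animals.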

Other observations

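MOGAT1, a second monoacylglycerol acyltransferase that was in no list and was looked up after the values of MOGAT2 were seen, held 1725 and 1487 counts in IR_Pra, 1042 counts in IR 1 and 0 counts in IR 2, and 1226 and 2402 counts in controls. NPC1L1, the cholesterol uptake transporter of the enterocyte, was likewise singled out after its values were seen. It had 292 and 223 CPM in IR_Pra, 125 and 9.26 CPM in IR, and 283 and 276 CPM in controls. NPC1L1 was below both controls in both IR animals, as APOB was. Unlike for APOB, IR_Pra 1 exceeded both controls.

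APOA1, FABP1, APOA4 and APOC3 together took 0.359% and 0.540% of all counts in IR_Pra, 3.92% in IR 1 and 0.0688% in IR 2, and 0.407% and 0.514% in controls. The TMM factor of IR 1 was 0.866, the lowest of the 6 libraries.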
